A study of Mus musculus with 82 samples.

Results

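The genes described here are the matrix metalloproteinases (Mmp), the ADAMTS proteases (Adamts) and the tissue inhibitors of metalloproteinases (Timp) of the mouse sciatic nerve. They were taken as every gene symbol made of 1 of these names, a number and at most 1 further letter, which gave 46 of the 78308 symbols listed in any of 8 RNA-seq tables: 23 Mmp, 19 Adamts and 4 Timp genes. Of these, 37 were listed in all 8 tables, 38 passed a filter on low counts in at least 1 table, and Adamts13, Mmp10, Mmp1a, Mmp1b, Mmp20, Mmp21, Mmp25 and Mmp7 were too low to be tested anywhere.

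The 82 libraries were made from quick-frozen sciatic nerves and fall into 22 groups. The study asked how nerves respond to axon damage and to the loss of Mitf, a transcription factor, or Ndrg1, a protein needed by myelinating Schwann cells. The tables compared Fig4 -/- with Fig4 +/+ at postnatal day (P) 12 and at P4 (3 libraries a group), nerves labelled Mitf with DhhCre at P21 (5 each) and with Egr2Cre at P12 (3 each), Mitf nerves 3 days post injury with uninjured Mitf nerves (4 each), and Mutant with Wild type at 3, 7 and 14 days post injury (3 each). A further table held Egr2Cre Mitf and Mitf nerves (3 each) and the last held Mitf-Ndrg1 (5), Ndrg1 (5), Mitf (6) and control (6), both with no age or injury in the labels. DhhCre and Egr2Cre are Cre drivers of the Schwann cell lineage, the cells that ensheathe axons. The labels do not say which of the groups named only Mitf, DhhCre, Egr2Cre or Mutant carry an altered Mitf gene, nor whether the libraries of a group came from different animals, so the p-values measure the spread between these libraries.

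Metalloproteinases cut proteins outside the cell with the help of a zinc ion. The Mmp family degrades collagens, laminins and elastin, and most members are secreted as inactive precursors that other proteases activate. The ADAMTS family includes enzymes that trim the ends of procollagens and enzymes that cut large proteoglycans such as aggrecan and versican. The Timp proteins bind the active site of these enzymes, and Timp3 is the member that also inhibits several ADAMTS proteases. In injured peripheral nerve, matrix proteolysis accompanies the breakdown of myelin, the entry of macrophages and the regrowth of axons through basement membrane tubes.

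Among the members with a RefSeq promoter (32 genes, build GRCm38.p6, windows of 300 bases from 250 before to 50 after the start site), 10 lie in the metalloproteinase cluster on chromosome 9, at chr9:7272514-7699585, in the order Mmp13, Mmp12, Mmp1b, Mmp3, Mmp1a, Mmp10, Mmp8, Mmp27, Mmp20 and Mmp7. The AP-1 motif TGANTCA, which reads the same on either strand, was found for 8 of these 10 genes, for 0 of the other 22 genes, and in 7.81% of all 32851 promoter windows of the reference. Windows without an exact match included those of Mmp8, Mmp27 and the 4 Timp genes, and sites that differ from the motif by a base were not searched for. The sequences below are the cluster members that were tested in at least 1 table and hold the motif, with Mmp10 for comparison and Timp1, the member called in the most comparisons, and they run 5′ to 3′ towards the start site with AP-1 matches in capitals. In Mmp12 the capitals also mark CACATGA, the M-box TCATGTG on the other strand, a motif of MiT factors such as Mitf, with its first base at -83 and present in 3.77% of all windows.
Mmp12 chr9:7347254-7347373 + strand: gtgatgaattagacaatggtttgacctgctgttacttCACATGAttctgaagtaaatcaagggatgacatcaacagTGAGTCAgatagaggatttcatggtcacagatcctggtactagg
Mmp3 chr9:7445759-7445799 + strand: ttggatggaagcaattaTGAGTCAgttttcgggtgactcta
Mmp13 chr9:7272462-7272502 + strand: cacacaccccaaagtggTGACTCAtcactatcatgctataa
Mmp10 chr9:7502262-7502302 + strand: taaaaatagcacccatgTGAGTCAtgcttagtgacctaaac
Timp1 chrX:20870016-20870165 + strand: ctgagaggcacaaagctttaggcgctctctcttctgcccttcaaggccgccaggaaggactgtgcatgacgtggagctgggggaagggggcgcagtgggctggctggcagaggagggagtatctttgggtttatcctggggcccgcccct

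The motif stood at -44 in Mmp12, -46 in Mmp3, -35 in Mmp13 and -63 in Mmp10, counted from the start site to its first base. The E-box CACGTG, also bound by MiT factors, was found in 7.15% of all windows and, among the members, only in Adamts17 and Mmp7. A match describes these letters only; no binding was measured.

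Each library held 15438783 to 34531474 estimated counts. Levels are given as CPM, counts scaled to the library's total and between the libraries of a table. Tests were run only within each of the 8 tables. Values of different tables, which were scaled separately, are set side by side without a test. A gene was called where edgeR's quasi-likelihood test gave an adjusted p (Benjamini-Hochberg over all genes tested) under 0.05. The targeted genes followed the labels for Fig4 (4.43 against 22.7 CPM at P12 and 4.46 against 30.3 CPM at P4, -/- against +/+) and for Ndrg1 (177 CPM in Mitf-Ndrg1 and 181 CPM in Ndrg1, against 1970 CPM in control), while Mitf reached 19.7 CPM in the P21 nerves labelled Mitf against 5.74 CPM in DhhCre (log2 change 1.77 ± 0.124, SE, adjusted p = 2.95e-05) and was called in no Mutant against Wild type comparison. Schwann and myelin markers, 8 genes, summed to 814 to 12800 CPM in the post-injury time course and to at least 21500 CPM in every other library. In whole nerve, fewer cells of a type and less RNA per cell cannot be told apart. Exons of Timp3, Mmp19, Mmp28, Adamts8, Adamts9, Mmp11, Mmp24, Adamts4, Adamts7, Timp4 and Mmp12 overlap those of a gene on the opposite strand over 1.53% to 22.3% of their length, and whether the counting used strand is not given in the sources used here.

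Per kb of transcript, Timp3, Timp2, Mmp15 and Mmp2 had the highest levels of the members in uninjured Mitf and control nerves. In uninjured Mitf nerves Timp3 led with 279.5 CPM per kb, followed by Timp2 with 165 CPM per kb, Mmp15, a membrane-type protease, with 108.3 CPM per kb and Mmp2, gelatinase A, with 108.2 CPM per kb. Control nerves of the Ndrg1 table had the same 4 leaders, Timp3 at 222.4, Timp2 at 163.7, Mmp15 at 139.4 and Mmp2 at 112.7 CPM per kb. The order differed between tables, and Mmp2 led in DhhCre nerves at P21 with 207 CPM per kb against 190.2 for Timp3. In Fig4 +/+ nerves at P4 Timp2 (128.1), Mmp15 (123.3), Timp3 (105), Mmp2 (104.3) and Mmp14 (88.94 CPM per kb) lay close together. In uninjured Mitf and control nerves Timp1 was a minor transcript, at 3.884 and 2.039 CPM per kb. After injury it made up 25.4% of all member RNA per kb in Mitf nerves 3 days post injury, 50.7% in Mutant nerves and 58.7% in Wild type nerves at day 3. By day 14 its share was 13.5% in Mutant nerves and 24.1% in Wild type nerves, and it was 12.5% in Mitf-Ndrg1 and 14% in Ndrg1 nerves.

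**Figure D1:**
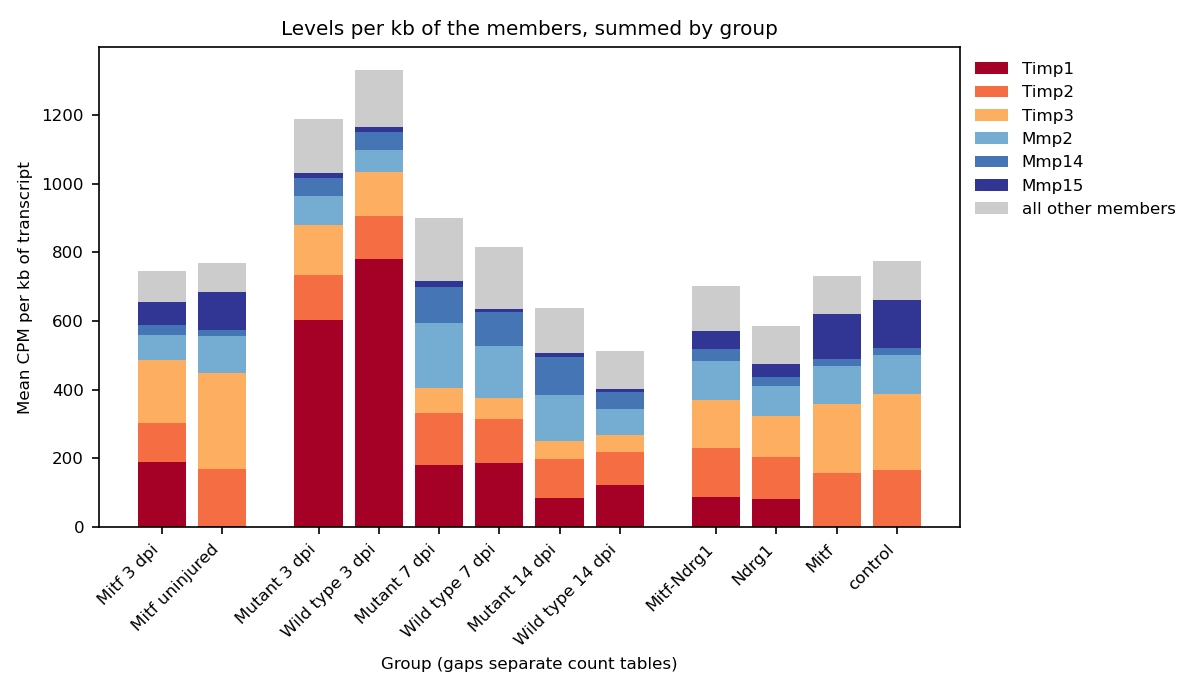
Mean CPM per kb of transcript (vertical axis) of the members, stacked by gene, in 12 groups of 3 tables (dpi, days post injury). Timp1 (dark red) reaches 781.4 CPM per kb in Wild type nerves at day 3 and is a thin line in uninjured Mitf, Mitf and control nerves, where Timp3, Timp2, Mmp15 and Mmp2 make up most of the bar.

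The change of each member in every pairwise comparison is drawn in the map of log2 changes. Calls stand mostly in the Ndrg1, injury and time course columns, and the columns of Mitf against DhhCre, Egr2Cre and control hold none.

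**Figure D2:**
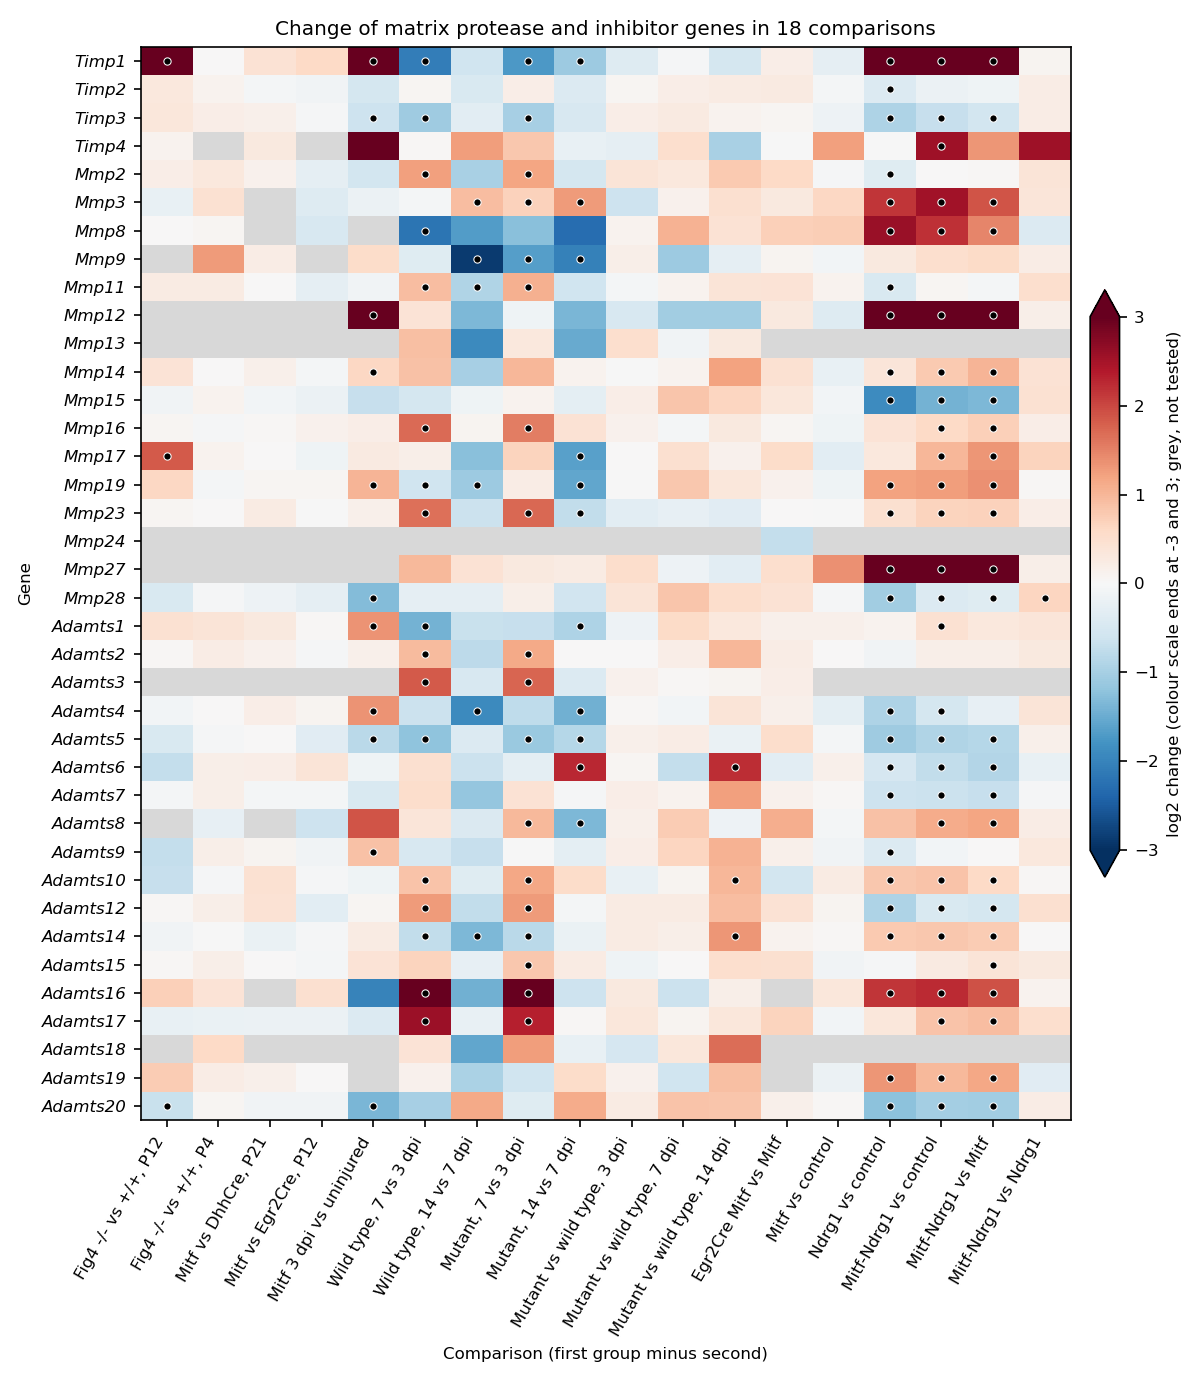
Log2 change (colour; red higher, blue lower in the first-named group) of the 38 members that were tested at least once, in 18 pairwise comparisons; dots mark an adjusted p under 0.05 and grey marks genes not tested. Timp1 is dark red in Fig4 -/- at P12, 3 days post injury and in the comparisons of Ndrg1 or Mitf-Ndrg1 with control and of Mitf-Ndrg1 with Mitf, and blue in the later against earlier days post injury.

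Nerves with low Ndrg1 carried far more Timp1 and Mmp12 RNA than control nerves and less Timp3, Mmp15, Mmp28, Adamts5 and Adamts20. In Ndrg1 against control nerves, 25 of 34 members tested were called, 12 higher and 13 lower, where 60.5% of all 15910 genes were called (30.8% higher, 29.7% lower), so the share of members called was not far from that of genes at large. Mmp12, Mmp27, Mmp3, Mmp8 and Adamts16 passed the filter only through nerves with low Ndrg1, so they could hardly be called lower and their calls support nothing about the members. The same table gave 27 of 34 called in Mitf-Ndrg1 against control (18 higher, 9 lower; 59.1% of all genes, 30.6% higher and 28.5% lower) and 25 of 34 in Mitf-Ndrg1 against Mitf (17 higher, 8 lower; 57.6% of all genes, 29.7% higher and 27.9% lower). These comparisons share libraries, so their values are set side by side.

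Timp1 had 71.2, 82.7, 92.1, 73.3 and 66.7 CPM in the Mitf-Ndrg1 libraries and 55.1, 70.5, 72.8, 84.7 and 79.4 CPM in the Ndrg1 libraries, against 0.931 to 2.10 CPM (median 1.47) in Mitf and 1.31 to 2.25 CPM (median 1.77) in control. Every library with low Ndrg1 stood far above every other library. The log2 change was 5.34 ± 0.162 (SE) in Ndrg1 against control (adjusted p = 4.27e-18, edgeR), 5.43 in Mitf-Ndrg1 against control and 5.70 in Mitf-Ndrg1 against Mitf. Timp3, the matrix-bound inhibitor, had 495.5, 506.8, 755.6, 667 and 837 CPM in Mitf-Ndrg1 and 574.7, 475, 627.3, 593.6 and 523.9 CPM in Ndrg1, against 727.2 to 1057 CPM (median 1000) in Mitf and 985.5 to 1145 CPM (median 1040) in control. The 5 Ndrg1 libraries lay below all control libraries, and the Mitf-Ndrg1 and Mitf libraries overlapped (log2 change -0.91 in Ndrg1 against control, -0.69 in Mitf-Ndrg1 against control and -0.54 in Mitf-Ndrg1 against Mitf). Timp2, an inhibitor that also takes part in the activation of Mmp2, averaged 454 ± 41.3 CPM in Ndrg1 and 607 ± 60.3 CPM in control (SD, n = 5 and 6; log2 change -0.42, adjusted p = 0.0014, edgeR). It was not called in Mitf-Ndrg1 nerves, which averaged 534 ± 94.9 CPM. Timp4, an inhibitor best known from heart and fat, averaged 0.882 CPM in Ndrg1 and 0.883 CPM in control. In the Mitf-Ndrg1 libraries it had 5.65, 4.51, 2.58, 12.3 and 0.799 CPM and was called against control (log2 change 2.54, adjusted p = 0.00517, edgeR). Their 6 adipocyte markers, all 6 called higher, summed to 76.4 to 842 CPM against 39.7 to 218 CPM in control. Skeletal muscle markers, 8 genes, varied widely, from 5.67 to 15900 CPM in Mitf-Ndrg1 and 8.21 to 1050 CPM in Ndrg1. They summed to 10 to 30800 CPM in Mitf and 14.8 to 943 CPM in control. The part of fat and muscle cells in the Timp4 difference was not tested.

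Mmp12, the macrophage elastase, had 30.7, 25.3, 24.8, 22.4 and 15.7 CPM in Mitf-Ndrg1 and 20.3, 24.8, 19.99, 24.97 and 15.4 CPM in Ndrg1, against 0 to 0.212 CPM (median 0) in Mitf and 0.0364 to 0.167 CPM (median 0.0665) in control. It was close to absent where Ndrg1 was at its usual level. Summed counts were 2329 in 5 Ndrg1 libraries against 12 in 6 control libraries, a depth-corrected ratio of 283 (95% interval 162 to 548, counting error only), and the fitted log2 change was 7.84 ± 0.396 (adjusted p = 2.32e-13, edgeR). Mmp27, of the same chromosome 9 cluster, had 2.35, 1.33, 0.89, 1.76 and 1.29 CPM in Mitf-Ndrg1 and 0.929, 1.66, 1.18, 1.18 and 1.87 CPM in Ndrg1, against 0 to 0.0963 CPM (median 0.0849) in Mitf and 0 to 0.147 CPM (median 0) in control. The groups did not overlap (148 counts in Ndrg1 against 3 in control, ratio 71.9, interval 24.1 to 353). Of the other cluster genes, Mmp8, the neutrophil collagenase, averaged 1.54 CPM in Ndrg1 and 0.251 CPM in control nerves (log2 change 2.60), and Mmp3, stromelysin 1, 0.764 CPM in Ndrg1 and 0.162 CPM in control nerves (2.15). Mmp12 and Mmp3 hold the AP-1 match printed above and Mmp8 and Mmp27 hold none in their windows. All 4 passed the filter only through nerves with low Ndrg1, so nothing is read from their number.

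Macrophage and neutrophil markers moved with these genes. All 8 macrophage markers were called higher in Ndrg1 nerves and summed to 2890 to 4130 CPM in Mitf-Ndrg1 and 2790 to 3780 CPM in Ndrg1, against 358 to 460 CPM in Mitf and 352 to 470 CPM in control. The 5 neutrophil markers listed in this table, 2 tested and both called higher, summed to 14.9 to 20 CPM in Mitf-Ndrg1 and 12.5 to 21 CPM in Ndrg1, against 1.8 to 4.67 CPM in Mitf and 1.46 to 2.83 CPM in control. All 8 Schwann and myelin markers were called lower in Ndrg1 nerves, with sums of 40800 to 68300 CPM in Mitf-Ndrg1 and 46200 to 59300 CPM in Ndrg1, against 144000 to 187000 CPM in Mitf and 154000 to 183000 CPM in control. Endothelial marker sums were lower too, at 105 to 138 CPM in Ndrg1 and 204 to 244 CPM in control nerves. Perineurial sums were 238 to 353 CPM in Ndrg1 and 509 to 730 CPM in control nerves. Fibroblast sums were 7740 to 9510 CPM in Ndrg1 and 9550 to 12200 CPM in control nerves. None of these sums overlapped, while the fibroblast sums of Mitf-Ndrg1 nerves (7810 to 11900 CPM) overlapped those of control. The part of these cells in the member changes was not tested.

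**Figure D3:**
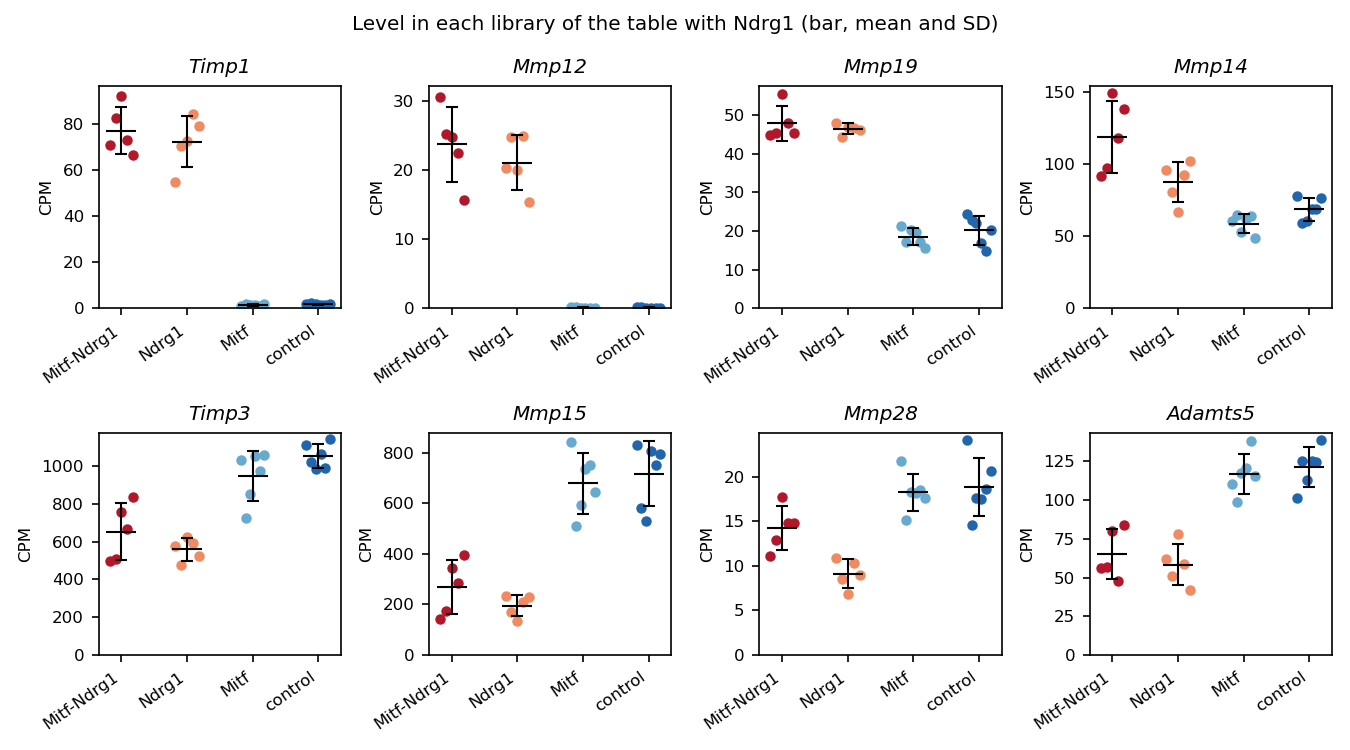
CPM (linear vertical axis) of 8 members in each of the 22 libraries of the table with Ndrg1, by group (points, libraries; bars, mean and SD). Timp1, Mmp12 and Mmp19 separate the Mitf-Ndrg1 and Ndrg1 libraries from the Mitf and control libraries without overlap, Mmp15 and Adamts5 separate them downwards, and Mmp28 is higher in each Mitf-Ndrg1 than in each Ndrg1 library.

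Mmp19, a secreted protease, had 44.9, 45.4, 55.5, 47.9 and 45.5 CPM in Mitf-Ndrg1 and 48.0, 44.2, 47, 46.7 and 46.2 CPM in Ndrg1, against 15.6 to 21.4 CPM (median 18.4) in Mitf and 14.7 to 24.4 CPM (median 21.2) in control. The groups did not overlap (log2 change 1.20 in Ndrg1 against control, adjusted p = 8.58e-10, edgeR). Mmp14, the membrane protease that activates Mmp2, had 91.5, 97.1, 148.8, 118.2 and 137.8 CPM in Mitf-Ndrg1 and 95.4, 80.6, 66.8, 92.2 and 101.7 CPM in Ndrg1, against 48.4 to 64.3 CPM (median 61.4) in Mitf and 58.8 to 77.5 CPM (median 68.8) in control. All Mitf-Ndrg1 libraries exceeded all Mitf libraries, and 1 Ndrg1 library lay within the control range (log2 change 1.02 in Mitf-Ndrg1 against Mitf, 0.35 in Ndrg1 against control). Mmp2 averaged 349 ± 96.3 CPM in Mitf-Ndrg1, 268 ± 32.8 CPM in Ndrg1, 339 ± 36.6 CPM in Mitf and 347 ± 43.2 CPM in control (SD), and was called only in Ndrg1 against control (log2 change -0.37, adjusted p = 0.023, edgeR). Mmp9, gelatinase B, was low in all 4 groups (2.04, 1.75, 1.37 and 1.43 CPM in Mitf-Ndrg1, Ndrg1, Mitf and control) and was not called.

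Mmp15, whose known substrates include matrix proteins and the Mmp2 precursor, had 142.8, 175.2, 344.4, 284.3 and 396.4 CPM in Mitf-Ndrg1 and 231.8, 169.9, 134.5, 209.6 and 229.1 CPM in Ndrg1, against 509.1 to 840.5 CPM (median 690) in Mitf and 527.9 to 831.8 CPM (median 773) in control. The groups did not overlap, and its log2 change of -1.88 ± 0.228 (SE) was the lowest of the 34 members in Ndrg1 against control. It was -1.41 in Mitf-Ndrg1 against control and -1.34 in Mitf-Ndrg1 against Mitf. Mmp28, epilysin, had 11.1, 12.9, 17.7, 14.8 and 14.8 CPM in Mitf-Ndrg1 and 10.9, 8.48, 6.88, 10.4 and 8.94 CPM in Ndrg1, against 15.1 to 21.7 CPM (median 18.2) in Mitf and 14.5 to 24.1 CPM (median 18.1) in control. Ndrg1 libraries were lowest, and each Mitf-Ndrg1 library exceeded each Ndrg1 library (log2 change -1.04 in Ndrg1 against control, -0.40 in Mitf-Ndrg1 against control). Smaller called changes in Ndrg1 against control were those of Mmp23 (0.49) and Mmp11 (-0.45). Mmp16 (0.60) and Mmp17 (1.00), both membrane-bound, and Mmp23 (0.68) were called higher in Mitf-Ndrg1 against control, along with Mmp12 (8.01), Mmp27 (5.81), Mmp3 (2.51), Mmp8 (2.20), Mmp19 (1.24) and Mmp14 (0.79).

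Of the ADAMTS enzymes that cut proteoglycans, Adamts20, Adamts5, Adamts4 and Adamts9 fell in Ndrg1 against control nerves, and Adamts1, Adamts8 and Adamts15 were not called. Adamts20, whose loss gives belted mice a white band of coat, had 59.9, 54.4, 78.8, 74.7 and 100.8 CPM in Mitf-Ndrg1 and 79.7, 60.4, 53.8, 65.9 and 58.3 CPM in Ndrg1, against 116.9 to 185.8 CPM (median 152) in Mitf and 129.2 to 172.2 CPM (median 150) in control. Adamts5, a major aggrecanase, had 56.3, 56.6, 80.3, 47.9 and 84.0 CPM in Mitf-Ndrg1 and 62.1, 50.8, 77.9, 59.0 and 42.1 CPM in Ndrg1, against 98.9 to 138 CPM (median 117) in Mitf and 101.5 to 138.9 CPM (median 125) in control. Neither gene's groups overlapped, and the log2 changes in Ndrg1 against control were -1.23 for Adamts20 and -1.06 for Adamts5. They were -1.02 and -0.90 in Mitf-Ndrg1 against control and -1.05 and -0.85 in Mitf-Ndrg1 against Mitf. Adamts4 (-0.93) and Adamts9 (-0.40), which cut the same kind of proteoglycan, also fell, while Adamts1 was not called in Ndrg1 nerves and was called higher in Mitf-Ndrg1 against control (0.45). Adamts8 (1.11) was called higher there too, and Adamts4 (-0.53, kept in 10 of 17 alternatives) lower. Adamts7 (-0.62) and Adamts12 (-0.93), a pair that cuts cartilage oligomeric matrix protein, fell in Ndrg1 against control. So did Adamts6 (-0.51), while Adamts10 (0.81), its closest relative, rose. In Mitf-Ndrg1 against control the changes were -0.65 for Adamts7, -0.45 for Adamts12, -0.74 for Adamts6 and 0.85 for Adamts10.

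Adamts14, which trims procollagens, had 35.7, 29.98, 34.2, 32.1 and 37.6 CPM in Mitf-Ndrg1 and 38.5, 34.0, 23.1, 38.1 and 35.1 CPM in Ndrg1, against 16.7 to 22.5 CPM (median 20.3) in Mitf and 16.8 to 23.2 CPM (median 19.8) in control. Only the lowest Ndrg1 library reached the control range (log2 change 0.79, adjusted p = 1.58e-06, edgeR). The low transcripts Adamts16 (2.14) and Adamts19 (1.32) rose in Ndrg1 against control, as they did in Mitf-Ndrg1 against control (2.24 and 0.98) with Adamts14 (0.80), and Adamts17 was called higher only in the Mitf-Ndrg1 comparisons (0.86 against control, 0.93 against Mitf). In Mitf-Ndrg1 against Mitf, Adamts7 had 18.5, 17.6, 24.3, 20.8 and 27.7 CPM against 27.3 to 39.4 CPM (median 36.4) in Mitf and 27.8 to 42.5 CPM (median 33.1) in control, and Adamts6 had 6.32, 4.56, 6.72, 5.03 and 7.65 CPM against 8.46 to 16.7 CPM (median 10.7) in Mitf. Both fell against Mitf, by 0.69 and 0.89 on the log2 scale, Adamts7 with 1 library inside the Mitf range. The other calls in that comparison were Mmp12 (8.41), Mmp27 (4.45), Mmp19 (1.37), Mmp17 (1.32), Adamts14 (0.77), Mmp23 (0.70), Adamts19 (1.16), Adamts16 (1.91), Mmp16 (0.73), Mmp3 (1.88), Mmp8 (1.47), Adamts10 (0.60), Adamts8 (1.17) and Adamts15 (0.38, kept in 7 of 17 alternatives), all higher, and Adamts12 (-0.53) and Mmp28 (-0.35), both lower.

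Between Mitf-Ndrg1 and Ndrg1 nerves only Mmp28 was called (log2 change 0.64 ± 0.14, adjusted p = 0.024, edgeR), 1 of 34 members where 1.47% of all genes were called (1.07% higher). The call was lost without Ndrg1 replicate 2 or 5, without Mitf-Ndrg1 replicate 3 or 4, and with these groups fitted alone (highest adjusted p = 0.108, edgeR), and 4 members were called without Mitf-Ndrg1 replicate 1. Of the 34 members, 30 had a positive log2 change (median 0.22, against 0.000138 over all genes), and nothing is read from this count. Endothelial markers (4 of 6 called higher) summed to 171 to 195 CPM in Mitf-Ndrg1 and 105 to 138 CPM in Ndrg1 nerves, and perineurial markers (3 of 6 called higher) to at least 423 CPM in Mitf-Ndrg1 and at most 353 CPM in Ndrg1 nerves. Neither overlapped between these groups, and the part of these cells was not tested. Timp1 differed by 0.09 (adjusted p = 0.79) and Mmp12 averaged 23.8 ± 5.43 CPM in Mitf-Ndrg1 and 21.1 ± 3.98 CPM in Ndrg1 (SD). The interaction test of the Mitf and Ndrg1 labels called 0 of 34 members, where 0.39% of all genes were called. Its lowest adjusted p among the members was 0.074 for Mmp14 (edgeR). An unadjusted p under 0.05 in edgeR was found for 7 members. DESeq2 called 3, and 3 were called without Mitf-Ndrg1 replicate 1. In Mitf against control nerves 0 of 34 members were called (0.00629% of all genes; 0 with an unadjusted p under 0.05 in edgeR, 0 by DESeq2), and Timp1 averaged 1.47 ± 0.427 CPM in Mitf and 1.80 ± 0.326 CPM in control (SD, n = 6 each).

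Injury raised Timp1 and Mmp12 as well. In Mitf nerves 3 days post injury against uninjured Mitf nerves, 11 of 31 members tested were called, 7 higher and 4 lower, where 22.1% of all 15245 genes were called (11.7% higher, 10.4% lower). The count was 7 without uninjured replicate 1, 2 or 3 and 5 with the sum of skeletal muscle markers (4.34 to 15.7 CPM after injury, 11.1 to 1990 CPM in uninjured nerves) as a covariate. Timp1 had 155.1, 204, 171.2 and 138.6 CPM after injury, against 3.69, 3.36, 3.27 and 3.38 CPM in uninjured nerves. The groups were far apart (log2 change 5.61 ± 0.162, adjusted p = 8.98e-08, edgeR). Mmp12 had 1.03, 24.99, 1.09 and 25.8 CPM after injury, against 0, 0, 0.124 and 0.4 CPM in uninjured nerves. Injured libraries fell into a high and a low pair, all above the uninjured libraries, with 1400 against 16 summed counts (ratio 98.7, interval 60.6 to 173, counting error only) and an adjusted p of 0.0277 (edgeR) that passed the threshold in 7 of 13 alternatives. Mmp12 passed the filter only through the injured libraries.

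Of the proteoglycan-cutting enzymes, Adamts4, Adamts9 and Adamts1 rose after injury. Adamts4 had 34.6, 21.1, 15.0 and 20.8 CPM after injury, against 7.504, 11.8, 7.83 and 8.65 CPM in uninjured nerves (log2 change 1.35, adjusted p = 0.00829, edgeR). Adamts9 had 23.8, 24.3, 24.3 and 23.6 CPM after injury, against 9.97, 10.97, 18.2 and 12.9 CPM in uninjured nerves (0.88, adjusted p = 0.0126, edgeR). Neither gene's groups overlapped. Adamts1, a protease that cuts versican, had 38.9, 36.2, 18.5 and 29.0 CPM after injury, against 10.2, 7.65, 10.5 and 20.2 CPM in uninjured nerves, and its groups overlapped by 1 library on each side (1.34, adjusted p = 0.0182, edgeR). Mmp19 had 21.7, 38.1, 30.5 and 23.7 CPM after injury, against 12.9, 13.8, 17.97 and 11.9 CPM in uninjured nerves, without overlap (1.01). Mmp14 averaged 91.3 ± 16.7 CPM after injury and 59.6 ± 9.5 CPM in uninjured nerves (0.61, adjusted p = 0.022, edgeR).

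Lower after injury were Mmp28, Adamts5, Adamts20 and Timp3. Mmp28 had 13.3, 8.96, 15.3 and 14.3 CPM after injury, against 31.0, 30.6, 32.9 and 33.1 CPM in uninjured nerves. Adamts5 had 69.4, 80.5, 101.4 and 79.5 CPM after injury, against 150.2, 152.6, 145.2 and 126.8 CPM in uninjured nerves. Adamts20 had 25.5, 17.6, 45.2 and 32.8 CPM after injury, against 76.2, 87.8, 81.8 and 65.2 CPM in uninjured nerves. None of these groups overlapped, and the log2 changes were -1.30 for Mmp28, -0.80 for Adamts5 and -1.36 for Adamts20. Timp3 had 682.4, 697.3, 1089 and 975.3 CPM after injury, against 1317, 1377, 1283 and 1288 CPM in uninjured nerves, all injured libraries lower (-0.61, adjusted p = 0.039, edgeR, lost in 9 of 13 alternatives). Not called were Timp2 (426 against 612 CPM, adjusted p = 0.0556), Timp4 (18 ± 31.4 against 2.08 ± 0.954 CPM, SD), Mmp2 (228 against 333 CPM) and Mmp9 (8.17 against 5.59 CPM). Of 8 macrophage markers 3 were called higher and none lower, with sums of 751 to 2070 CPM after injury against 385 to 962 CPM in uninjured nerves. The macrophage sums were 751, 2070, 1390 and 1610 CPM in the injured libraries in the order given above for Mmp12. Neutrophil markers (2 of 4 tested called higher) summed to 6.89 to 23.9 CPM after injury against 1.48 to 4.4 CPM in uninjured nerves. Ly6g and Ngp were at 0 in every injured library, and Elane and Ngp in every uninjured library. Schwann and myelin markers (4 of 8 called lower) summed to 37300 to 91800 CPM after injury against 103000 to 128000 CPM in uninjured nerves, and the part of these cells was not tested.

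The 3-day injury and Ndrg1 comparisons share no library. Of 31 members tested in both, 11 were called after injury, 22 in Ndrg1 nerves and 10 in both, which is 90.9% of the injury list and 45.5% of the Ndrg1 list. For all 14886 genes tested in both, the calls shared made up 86.4% of the injury calls and 31.3% of the Ndrg1 calls. The direction was the same for 8 members, higher for Mmp12, Mmp14, Mmp19 and Timp1 and lower for Adamts20, Adamts5, Mmp28 and Timp3. It was opposite for 2, Adamts4 and Adamts9, which were higher after injury and lower in Ndrg1 nerves, where Adamts4 had 11.3, 9.52, 12, 10.3 and 10.4 CPM against 14.4 to 26.8 CPM (median 20.3) in control and Adamts9 had 23.0, 21.9, 17.8, 20.95 and 19.2 CPM against 23.9 to 32.1 CPM (median 26.6) in control. The Ndrg1 groups did not overlap for either gene. Among all genes called in both comparisons 98.4% had the same direction. Mmp12 passed the filter only through the injured nerves and only through the nerves with low Ndrg1. It could hardly be called lower in either comparison, so its place in these counts supports nothing. The difference between the injury and Ndrg1 changes was not itself tested.

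**Figure D4:**
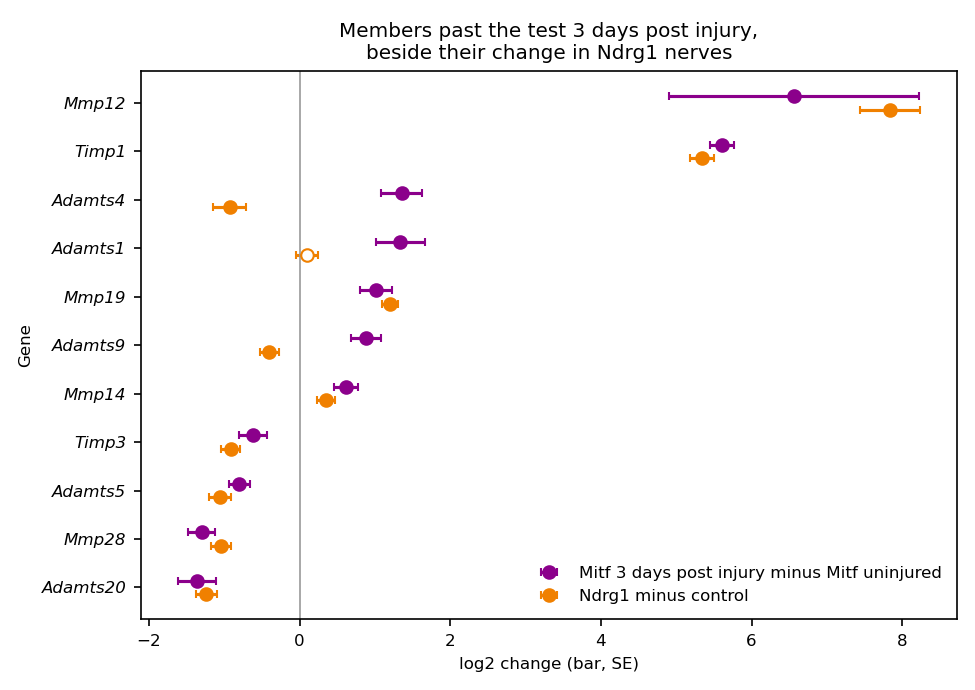
Log2 change (horizontal axis, bars SE) of the 11 members called in Mitf nerves 3 days post injury against uninjured Mitf nerves (purple), beside their change in Ndrg1 against control nerves (orange; open symbol, not called). Adamts4 and Adamts9 lie right of 0 after injury and left of 0 in Ndrg1 nerves, and the points of the other called members share a side.

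In the days after injury Timp1 fell in both genotypes, and Adamts16, Adamts17, Adamts3, Mmp23 and Mmp16 were among the members that rose by day 7. Against day 3, 18 of 37 members were called at day 7 in Mutant nerves (13 higher, 5 lower; 33.4% of all 15852 genes, 16.2% higher and 17.2% lower) and 17 of 37 in Wild type nerves (10 higher, 7 lower; 39.1%, 19.4% higher and 19.6% lower). Timp1 had 548.6, 536.3 and 512.1 CPM at day 3, 160.1, 151.9 and 172.3 CPM at day 7 and 71.8, 90.6 and 65.6 CPM at day 14 in Mutant nerves. Wild type nerves had 808.5, 523.4 and 739.3 CPM at day 3, 168.2, 179.1 and 145.5 CPM at day 7 and 126.2, 87.2 and 112.8 CPM at day 14. The 3 days did not overlap in either genotype. The log2 change at day 7 was -1.72 in Mutant (adjusted p = 1.06e-05, edgeR) and -2.07 in Wild type (adjusted p = 1.5e-06), and the further change at day 14 was -1.09 in Mutant (adjusted p = 0.00167) and -0.60 in Wild type (adjusted p = 0.0535).

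Adamts16, a protease known from human and rat blood pressure genetics, had the largest log2 rise at day 7. Mutant nerves had 0.286, 0.202 and 1.06 CPM at day 3 and 10.7, 5.96 and 8.88 CPM at day 7, and Wild type nerves 0.227, 0.731 and 0.279 CPM at day 3 and 9.46, 19.8 and 10.7 CPM at day 7. All day 7 libraries exceeded all day 3 libraries (log2 change 4.02 in Mutant and 4.97 in Wild type). Adamts16 and Adamts3 passed the filter only through the later days. Mmp23, a membrane-anchored protease, had 12.8, 10.7 and 12.3 CPM at day 3 and 40.6, 36.0 and 41.4 CPM at day 7 in Mutant nerves, and 13.6, 12.9 and 18.4 CPM at day 3 and 54.3, 50.8 and 35.6 CPM at day 7 in Wild type nerves. Mmp16, another membrane-bound protease, had 1.14, 0.930 and 1.15 CPM at day 3 and 3.05, 3.08 and 3.15 CPM at day 7 in Mutant nerves, and 1.09, 0.609 and 1.25 CPM at day 3 and 3.46, 4.00 and 2.12 CPM at day 7 in Wild type nerves. Neither gene's days overlapped, and the log2 changes were 1.72 and 1.53 in Mutant and 1.65 and 1.70 in Wild type. Adamts17 had 2.62, 3.03 and 2.46 CPM at day 3 and 16.3, 10.7 and 13.9 CPM at day 7 in Mutant nerves, and 1.77, 2.31 and 2.32 CPM at day 3 and 6.18, 20.7 and 11.2 CPM at day 7 in Wild type nerves, again without overlap (2.33 and 2.57). Adamts10, which like Adamts17 is tied to fibrillin microfibrils in human disease, rose by 1.16 in Mutant (8.04, 7.60 and 8.61 CPM at day 3; 20.2, 14.4 and 19.6 CPM at day 7) and 0.85 in Wild type nerves.

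The procollagen-trimming Adamts2 (1.14 in Mutant, 0.95 in Wild type) and Adamts3 (1.76 and 1.85) rose at day 7, and so did Adamts12 (1.28 and 1.27), Mmp11 (1.08 and 0.92), a stromelysin of wound stroma, and Mmp2 (1.18 and 1.24). In Wild type nerves Adamts3 had 0.409, 0.447 and 0.186 CPM at day 3 and 0.865, 1.68 and 1.26 CPM at day 7, without overlap. Mmp2 averaged 588 ± 155 CPM at day 7 and 259 ± 48.4 CPM at day 3 in Mutant nerves and 469 ± 188 CPM at day 7 and 199 ± 26.4 CPM at day 3 in Wild type nerves (SD, n = 3 each), and its call was lost in 7 of 12 alternatives in Mutant and 6 of 12 in Wild type nerves. Its activator Mmp14 had 336 against 168 CPM in Mutant and 314 against 171 CPM in Wild type nerves, day 7 against day 3, and was not called (adjusted p = 0.0633 and 0.0875, edgeR). Adamts8 (0.96), Adamts15 (0.81) and Mmp3 (0.70) were called higher in Mutant and not in Wild type nerves, and the interaction test given further on called none of them.

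Fibroblast markers rose in the same interval. Of 8, 7 were called higher in Mutant and 7 in Wild type nerves at day 7, and their sums were 13600 to 14500 CPM at day 7 against 4580 to 5410 CPM at day 3 in Mutant and 9470 to 16800 CPM at day 7 against 3970 to 4940 CPM at day 3 in Wild type nerves. Endothelial markers (6 of 6 called higher in Mutant, 2 of 6 in Wild type nerves) moved the same way. Of 8 macrophage markers, 4 were called lower at day 7 in Mutant and 1 in Wild type nerves. Their sums, day 7 against day 3, overlapped in Mutant (1500 to 3340 against 2760 to 6110 CPM) and Wild type nerves (3510 to 3710 against 3300 to 4240 CPM). In Wild type nerves 3 of 6 neutrophil markers were called lower (sums of 10 to 12.7 against 39.5 to 79.1 CPM). So were 5 of 8 Schwann and myelin markers there (814 to 1190 against 3060 to 3760 CPM). In Mutant nerves 0 of 6 and 2 of 8 were called lower. Both sums overlapped between the days there (7.64 to 26.9 against 17.6 to 41.5 CPM and 1260 to 12800 against 3330 to 3800 CPM). The part of these cells in the protease and inhibitor changes was not tested.

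Timp3, Adamts5 and Adamts14 fell by day 7 along with Timp1. Timp3 had 575.3, 779 and 714.5 CPM at day 3 and 370.6, 322.6 and 345.2 CPM at day 7 in Mutant nerves (-0.99), and 579.8, 597.2 and 616.1 CPM at day 3 and 239.2, 324.3 and 296.7 CPM at day 7 in Wild type nerves (-1.06). Adamts5 had 172.1, 145.3 and 119.3 CPM at day 3 and 46.6, 91.1 and 63.8 CPM at day 7 in Mutant nerves (-1.12), and 154.5, 102.4 and 137.2 CPM at day 3 and 51.9, 37.7 and 82.2 CPM at day 7 in Wild type nerves (-1.20). Adamts14 had 13.0, 13.2 and 15.6 CPM at day 3 and 8.67, 8.26 and 7.06 CPM at day 7 in Mutant nerves (-0.80), and 11.1, 10.6 and 13.4 CPM at day 3 and 5.25, 8.68 and 7.16 CPM at day 7 in Wild type nerves (-0.73). In none of the 3 did the days overlap. Mmp9, which neutrophils store and macrophages secrete, had 59.5, 29.5 and 23.95 CPM at day 3 and 14.8, 11.9 and 9.25 CPM at day 7 in Mutant nerves (-1.65, adjusted p = 0.0127, edgeR). Wild type nerves had 33.2 ± 12.8 CPM at day 3 and 25.7 ± 14.4 CPM at day 7 (SD), and it was not called there. Called in Wild type and not in Mutant nerves were Adamts1 (28.9, 35.3 and 55.5 CPM at day 7 against 115.7, 104.8 and 99.0 CPM at day 3, -1.42), Mmp8 (-2.20) and Mmp19 (-0.60), Mmp8 kept in 6 and Mmp19 in 5 of 12 alternatives. Adamts1 was also lower at day 7 in Mutant nerves, without overlap (48.5, 79.5 and 49.45 CPM against 92.1, 114.1 and 81.1 CPM at day 3). The interaction test given further on called none of Adamts1, Mmp8, Mmp19 and Mmp9. Timp2 (553 against 483 CPM in Mutant, 480 against 464 CPM in Wild type) and Timp4 (12.8 against 7.32 CPM, 9.01 against 8.76 CPM), day 7 against day 3, were not called.

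From day 7 to day 14 most called members fell, with Mmp3 the exception in both genotypes. In Mutant nerves 11 of 37 were called (2 higher, 9 lower; 17.7% of all genes, 8.55% higher and 9.16% lower) and in Wild type nerves 6 of 37 (1 higher, 5 lower; 7.41%, 2.52% higher and 4.9% lower). Mmp3, a protease that also activates other Mmp precursors, had 21.8, 15.3 and 16.3 CPM at day 7 and 40.0, 41.2 and 47.5 CPM at day 14 in Mutant nerves (1.27), and 21.4, 17.7 and 9.55 CPM at day 7 and 31.2, 28.5 and 33.2 CPM at day 14 in Wild type nerves (0.93). Mmp9 had 3.86, 3.41 and 1.63 CPM at day 14 in Mutant nerves (-2.03 against day 7), and 35.5, 32.3 and 9.15 CPM at day 7 and 3.53, 3.76 and 3.30 CPM at day 14 in Wild type nerves (-2.86, adjusted p = 0.0074, edgeR). Neither gene's days overlapped. Mmp19 had 73.95, 113.9 and 122.6 CPM at day 7 and 27.3, 28.9 and 49.5 CPM at day 14 in Mutant nerves (-1.55), and it fell by 1.09 in Wild type nerves. Adamts8 had 4.15, 4.08 and 4.12 CPM at day 7 and 1.74, 1.30 and 1.78 CPM at day 14 in Mutant nerves (-1.34). Mmp23 had 27.3, 19.4 and 24.02 CPM at day 14 in Mutant nerves, below all day 7 libraries (-0.74). Further falls were those of Mmp17 (-1.62), Adamts1 (-0.92), Adamts4 (-1.45) and Adamts5 (-0.86) in Mutant nerves and of Adamts14 (-1.35), Adamts4 (-1.92) and Mmp11 (-0.90) in Wild type nerves. Several of these calls were weak. Of 13 alternatives, Mmp17 was kept in 5, Adamts1 in 4, Adamts4 in 3 (log2 change -2.27 to -0.89), Adamts5 in 4 and Mmp23 in 7 in Mutant nerves, and Adamts4 in 4 (-2.72 to -1.05), Mmp11 in 4 and Mmp3 in 7 in Wild type nerves. Timp2, Timp3, Timp4, Mmp2 and Mmp14 were not called in either genotype.

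**Figure D5:**
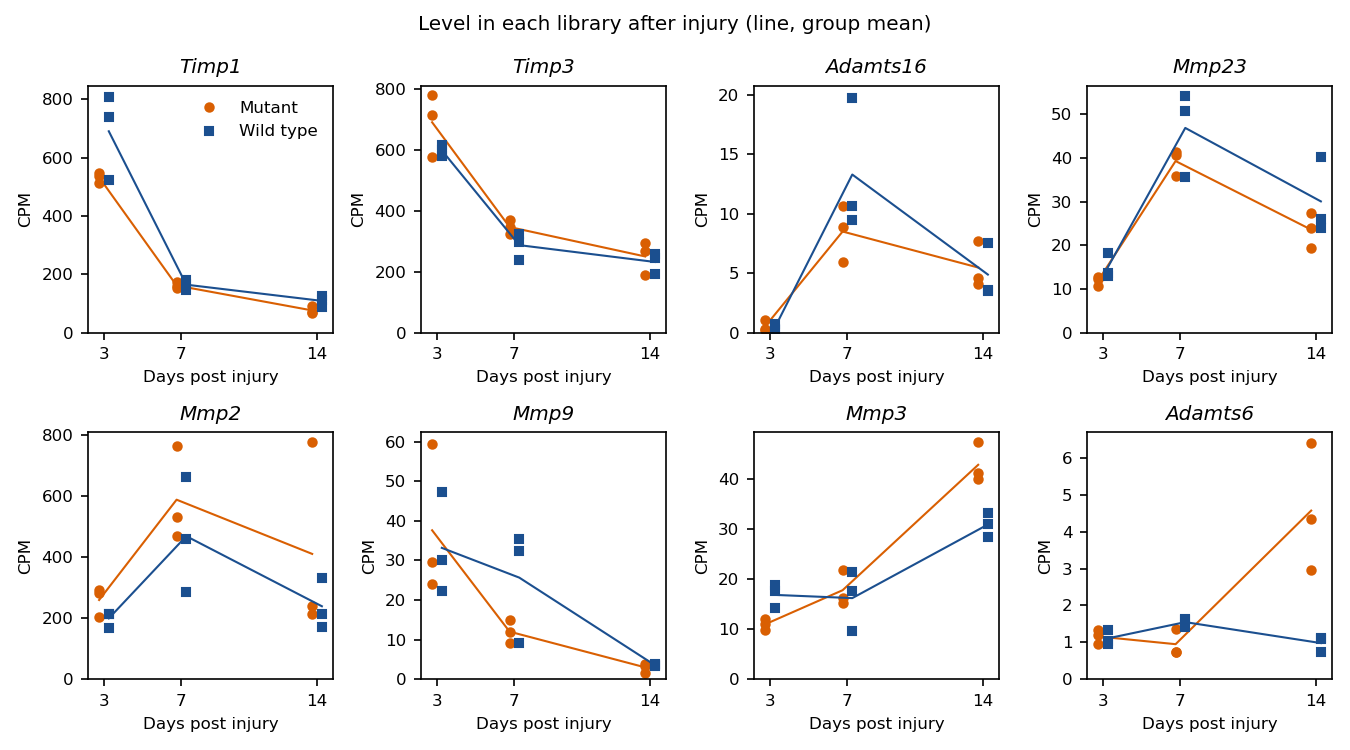
CPM (linear vertical axis) of 8 members at 3, 7 and 14 days post injury (horizontal axis) in Mutant (orange circles) and Wild type (blue squares) libraries, with lines through group means. Timp1 and Timp3 are highest at day 3, Adamts16 and Mmp23 peak at day 7, Mmp3 is highest at day 14, and Adamts6 at day 14 separates Mutant from Wild type libraries.

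Skeletal muscle markers, genes of a tissue next to the nerve, differed widely between libraries of this table. Their 8 genes summed to 4.2 to 253 CPM at day 3, 1160 to 2450 CPM at day 7 and 5480 to 141000 CPM at day 14 in Mutant nerves, and to 247 to 1790, 2700 to 29800 and 9540 to 112000 CPM in Wild type nerves. Without the 3 libraries above 50000 CPM (Mutant day 14 replicate 2, Wild type day 14 replicates 2 and 3), which leaves 1 Wild type library at day 14 assumed to vary like the others, the day 14 against day 7 calls numbered 5 in Mutant and 0 in Wild type nerves. Leaving out 1 library at a time, the Mutant count was 6 without day 7 replicate 3, 7 without day 7 replicate 2 or day 14 replicate 1 or 2, and 17 without day 14 replicate 3. The Wild type count was 3 without day 7 replicate 3 and 2 without day 7 replicate 2 or day 14 replicate 2 or 3. With the 2 days fitted alone, 1 member was called in Mutant and 3 in Wild type nerves.

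Between Mutant and Wild type nerves 3 members were called at day 14 and none earlier. At day 3, 0 of 37 members were called (0% of all genes; 1 member, Mmp3, with an unadjusted p under 0.05 in edgeR; 0 by DESeq2). At day 7, 0 of 37 were called (0% of all genes; 5 with an unadjusted p under 0.05 in edgeR; 1 by DESeq2). At day 14 the 3 called of 37, all higher in Mutant nerves, made up a share like that of all genes (8.29% called, 7.05% higher). Adamts6 had 4.34, 2.97 and 6.41 CPM in Mutant nerves, against 1.12, 0.738 and 1.08 CPM in Wild type nerves (log2 change 2.22 ± 0.324, adjusted p = 0.00286, edgeR). Adamts14 had 6.19, 4.78 and 9.82 CPM in Mutant nerves, against 2.60, 3.10 and 2.61 CPM in Wild type nerves (1.33, adjusted p = 0.00733). Adamts10 had 23.2, 19.8 and 36.2 CPM in Mutant nerves, against 16.4, 11.95 and 11.7 CPM in Wild type nerves (0.99, adjusted p = 0.0182). None of the 3 overlapped between the groups. In Mutant nerves Adamts6 had 1.36, 0.732 and 0.749 CPM at day 7, all below day 14 (2.27, adjusted p = 0.000644, edgeR), and it was not called between these days in Wild type nerves. The interaction of genotype and time called Adamts6 alone (adjusted p = 0.0454, edgeR; 1 of 37 members, 0.082% of all genes), and leaving out any 1 library other than Mutant day 14 replicate 2 ended that call, as did the replicate block. Without the 3 libraries rich in muscle markers, which leaves 1 Wild type library, 0 members were called at day 14 and 0 in the interaction, while the log2 changes at day 14 were 2.27 for Adamts6, 1.63 for Adamts14 and 0.87 for Adamts10 (adjusted p = 0.0883, 0.0901 and 0.175, edgeR). Adipocyte markers (1 of 6 called lower) summed to 1870 to 6060 CPM in Mutant and 8420 to 9340 CPM in Wild type nerves at day 14, without overlap, and the part of those cells was not tested. The day 14 count was 1 without Wild type replicate 3, 6 without Mutant replicate 1, 10 without Mutant replicate 2 and 0 with that day fitted alone. Timp1 averaged 76 ± 13.1 CPM in Mutant and 109 ± 19.8 CPM in Wild type nerves at day 14 (SD, adjusted p = 0.0804), and Timp2, Timp3, Timp4, Mmp2, Mmp9 and Mmp14 were not called at any day.

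Timp1 was called higher in Fig4 -/- nerves at P12 and not at P4. Fig4 is a lipid phosphatase whose loss in mice causes neurodegeneration with hypomyelination. At P12, 3 of 30 members tested were called, 2 higher and 1 lower, where 3.03% of all 14338 genes were called (1.87% higher, 1.16% lower). Timp1 had 11.3, 8.39 and 7.22 CPM in Fig4 -/- nerves, against 0.404, 0.957 and 1.9 CPM in Fig4 +/+ nerves (log2 change 3.04 ± 0.503, adjusted p = 0.00815, edgeR). Mmp17, a membrane protease held by a lipid anchor, had 19.8, 26.0 and 13.3 CPM in Fig4 -/- nerves, against 7.58, 4.64 and 4.34 CPM in Fig4 +/+ nerves (1.83 ± 0.31, adjusted p = 0.00908). Adamts20 had 73.8, 67.6 and 90.1 CPM in Fig4 -/- nerves, against 125.7, 142.7 and 99.6 CPM in Fig4 +/+ nerves (-0.67 ± 0.159, adjusted p = 0.0449, kept in 5 of 11 alternatives). The groups did not overlap for any of the 3. Timp2 (341 against 275 CPM), Timp3 (1280 against 1010 CPM), Timp4 (0.548 against 0.513 CPM), Mmp2 (139 against 122 CPM) and Mmp14 (62.8 against 47.2 CPM) were not called, with adjusted p of 0.15 or more. Mmp9 was below the filter. Macrophage markers (5 of 8 called higher) summed to 614 to 761 CPM in Fig4 -/- and 316 to 390 CPM in Fig4 +/+ nerves, and muscle markers to 9.86 to 10.8 CPM in Fig4 -/- (Tnnc2 at 0) and 12.6 to 105 CPM in Fig4 +/+ nerves. Without Fig4 -/- replicate 2 the count was 1. With the muscle sum as a covariate all 3 calls were lost, while the log2 changes were 2.82 for Timp1 (adjusted p = 0.139, edgeR), 1.69 for Mmp17 (0.171) and -0.46 for Adamts20 (0.443). Over the 11 alternatives the log2 change ran from 2.64 to 3.71 for Timp1 and from 1.58 to 2.13 for Mmp17, and the part of macrophages was not tested. Timp1 reached the level the filter asks for in 3 of 3 Fig4 -/- and 2 of 3 Fig4 +/+ libraries.

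At P4, 0 of 32 members were called (0.00672% of all 14888 genes; 1 with an unadjusted p under 0.05 in edgeR, Adamts1; 0 by DESeq2). In each group 1 library stood apart. Fig4 -/- replicate 3 and Fig4 +/+ replicate 1 had muscle sums of 9600 and 11900 CPM (the other libraries 125 to 1730 CPM) and Schwann and myelin sums of 70100 and 44600 CPM (119000 to 138000 CPM). The count was also 0 without either library and with the muscle sum as a covariate. Timp1 averaged 8.85 ± 3.5 CPM in Fig4 -/- nerves and 8.85 ± 2.95 CPM in Fig4 +/+ nerves (SD, n = 3 each), with a log2 change of 0.0021 ± 0.367 (SE), an error that limits which differences could be detected here. Timp2 (509 against 475 CPM), Timp3 (570 against 496 CPM), Mmp2 (397 against 321 CPM), Mmp9 (1.4 against 0.556 CPM) and Mmp14 (292 against 288 CPM) were not called, and Timp4 was below the filter. The 2 ages are in different tables, so the change with age was not tested.

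No member was called between nerves labelled Mitf and nerves labelled DhhCre or Egr2Cre. In Mitf against DhhCre nerves at P21, 0 of 28 were called (0.0143% of all genes; 2 with an unadjusted p under 0.05 in edgeR, Mmp23 and Timp1; 0 by DESeq2). Timp1 averaged 2.28 ± 0.348 CPM in Mitf and 1.68 ± 0.288 CPM in DhhCre nerves (SD, n = 5 each; log2 change 0.44). Timp2 (600 against 628 CPM), Timp3 (996 against 898 CPM), Timp4 (2.54 against 2.06 CPM), Mmp2 (695 against 637 CPM), Mmp9 (0.997 against 0.863 CPM) and Mmp14 (90.7 against 81.2 CPM) had adjusted p of 1. In Mitf against Egr2Cre nerves at P12, 0 of 30 were called (0.0139% of all genes; 3 with an unadjusted p under 0.05 in edgeR, Adamts5, Adamts6 and Timp1; 0 by DESeq2). Timp1 had 2.70, 2.63 and 2.29 CPM in Mitf nerves, against 1.68, 1.77 and 1.56 CPM in Egr2Cre nerves, without overlap (0.60). Timp2 (420 against 449 CPM), Timp3 (587 against 602 CPM), Mmp2 (352 against 427 CPM) and Mmp14 (161 against 168 CPM) were not called, and Timp4 and Mmp9 were below the filter. Muscle markers summed to 7.67 to 36.8 CPM in these Mitf nerves and 8.83 to 11100 CPM in Egr2Cre nerves. Macrophage markers summed to 350 to 488 CPM and 227 to 403 CPM, and the part of macrophages was not tested.

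In Egr2Cre Mitf against Mitf nerves 0 of 34 members were called (0% of all 15482 genes, 0 members by DESeq2). An unadjusted p under 0.05 in edgeR was found for 5, Adamts15, Adamts5, Adamts8, Mmp17 and Mmp2. The log2 change was positive in 30 of 34 (median 0.21, against -0.00529 over all genes), and nothing is read from this count. Timp1 had 22.2, 22.2 and 22.9 CPM in Egr2Cre Mitf nerves, against 23.0, 17.7 and 18.2 CPM in Mitf nerves, and the groups overlapped. Timp2 (908 against 756 CPM), Timp3 (742 against 712 CPM), Timp4 (11.6 against 11.7 CPM), Mmp2 (283 against 189 CPM), Mmp9 (3.76 against 3.6 CPM) and Mmp14 (201 against 147 CPM) were not called. Schwann and myelin markers summed to 27500 to 31700 CPM in Egr2Cre Mitf and 21500 to 31400 CPM in Mitf nerves of this table, and muscle markers to 16600 to 25900 CPM and 14400 to 63300 CPM.

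Among genes that work with these proteases, the docking receptor Cd44, which holds Mmp9 at the cell surface, was called in 9 comparisons. In Mitf-Ndrg1 against control it was higher by 2.34, in Mitf-Ndrg1 against Mitf by 2.43, in Ndrg1 against control by 2.20 (92.1 against 20 CPM), after injury by 2.61 (66.2 against 10.8 CPM) and in Fig4 -/- at P12 by 2.12 (101 against 23.1 CPM). In the time course it fell, by 1.35 at day 7 and 1.03 at day 14 in Mutant nerves and by 1.68 and 0.80 in Wild type nerves. Of 10 tested genes of the plasminogen system, which activates several Mmp precursors, 7 rose and 0 fell in Ndrg1 nerves (30.8% of all genes rose and 29.7% fell), 8 rose and 0 fell in Mitf-Ndrg1 nerves against control (30.6% and 28.5%), and 4 rose and 0 fell after injury (11.7% and 10.4%). At day 7 against day 3, 2 of 11 rose and 6 fell in Mutant nerves (16.2% and 17.2% of all genes) and 2 rose and 4 fell in Wild type nerves (19.4% and 19.6%). The genes that rose in nerves with low Ndrg1 or after injury included the protease Plau (2.58 in Ndrg1 against control) and the receptor Plaur (3.07 after injury, where it had 12.9 CPM against 1.54 CPM in uninjured nerves). Plaur fell at day 7 (-1.65 in Mutant, -1.93 in Wild type) and again at day 14 (-1.78 in Mutant, -1.43 in Wild type).

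The shares of all genes just given are also the background for the other lists. Of 19 tested ADAM and BMP1-like proteases 6 rose and 5 fell in Ndrg1 nerves, with Adam8, a leukocyte protease, at 12.7 CPM against 0.871 CPM in control (3.86). After injury 1 of 19 rose and 5 fell, and at day 7 the fibroblast protease Fap rose in Mutant (1.49) and Wild type (2.20) nerves. Of 25 tested proteoglycans and basement membrane proteins, which are substrates, 6 rose and 12 fell in Ndrg1 nerves and 2 rose and 3 fell of 24 after injury. Thbs2, a matrix protein that binds Mmp2, rose by 2.49 in Mitf-Ndrg1 against control, by 2.51 in Mitf-Ndrg1 against Mitf, by 2.05 after injury and by 0.94 in Fig4 -/- nerves at P12, and its relative Thbs1 rose by 1.53 in Mitf-Ndrg1 against control and 1.76 in Mitf-Ndrg1 against Mitf. The antiangiogenic collagen Col18a1 was higher in Fig4 -/- nerves at P12 (1.32). Of 18 tested other inhibitors and ADAMTS-like proteins 4 rose and 9 fell in Ndrg1 nerves and 3 rose and 1 fell after injury. Of 15 activators and docking receptors 7 rose and 4 fell in Ndrg1 nerves and 2 rose and 2 fell after injury. In Mitf-Ndrg1 against Ndrg1 nerves the plasminogen activator Plat (0.54), the receptor Sdc1 (0.49) and the peptidase Dpp4 (0.67) were called higher, and Plat (0.71) and Thbs1 (0.56) were called in the Mitf by Ndrg1 interaction. In Mutant against Wild type nerves at day 14 the calls included Adamtsl4 (1.13), which binds fibrillin, Adam33 (1.53) and Adam19 (1.44), all higher. Adam33 rose by 2.04 in Mutant nerves and Adam12 fell by 1.90 in Wild type nerves between days 7 and 14.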

How the data were processed

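RNA from sciatic nerves was sequenced as stranded mRNA libraries, per the labels' protocols. The deposited tables, 1 for each of 8 experiments, hold estimated counts per gene that the authors made from the reads; kallisto and the build mm10 are named per the submitters' processing notes, without a version, an annotation or the way transcripts were summed. All 82 columns matched a sample. Estimated counts were rounded to whole numbers. Within each table, edgeR's filterByExpr (minimum count 10) chose the genes, TMM scaled the libraries and the quasi-likelihood test in its robust form gave the p-values (edgeR 4.0.16 with limma 3.58.1, R 4.3.3), with all groups of a table in 1 fit and no covariate. P-values were adjusted by Benjamini-Hochberg over all genes of a comparison, with a threshold of 0.05. Each standard error is the size of the log2 change over the square root of its F. The procedure was tested on simulated data for 1 comparison of each table. It recovered from 6% (Fig4 at P4) to 81% (Mitf against DhhCre at P21) of 2-fold changes. For 4-fold changes it recovered from 58% (Fig4 at P4) to 95% (Mitf against control). Comparisons with 0 calls can therefore miss changes of this size.

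Alternatives were RLE scaling, DESeq2 1.42.0, no filter, the replicate number as a block, the compared groups alone, and leaving out each library. A covariate for skeletal muscle (log2 of the summed CPM of 8 markers plus 1) and a fit without libraries above 50000 CPM of these markers were added after seeing the data. The reported tests took no libraries as pairs, and no label says that same-numbered libraries are pairs. Deviations of same-numbered libraries had correlations of 0.119 to 0.299 in the Mitf and DhhCre table (5 pairs). They had correlations of 0.123 to 0.34 in the Egr2Cre Mitf table (3 pairs). Libraries with different numbers reached 0.25 in the first and 0.111 in the second of these tables. No 2 libraries of a group had counts that agree within sampling noise (lowest chi-square per degree of freedom 9.607).

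Named genes are every called member, with the 5 smallest p per direction shown by library where over 10 were called; Timp1 to Timp4, Mmp2, Mmp9 and Mmp14 in every table; and, of the related gene lists, the 3 called genes with the smallest p in a comparison. Members and lists were chosen with earlier results of these data known. Promoters came from RefSeq (GRCm38.p6) and gene positions from GENCODE vM21. Transcript lengths are those of the longest annotated transcript. Intervals of count ratios are exact and cover counting error only. Tables were handled with pandas 2.3.3 and numpy 2.4.6, intervals with scipy 1.17.1 and figures with matplotlib 3.10.9.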

Additional observations from a re-analysis of the deposited data

Results flagged for a closer look

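Of 176 sets of 4 to 6 libraries of a member in a group, 7 (3.98%) had a highest or lowest library set apart from the others by Dixon's criterion, where chance flags about 1 in 20. Timp4 was set apart in 3 groups, with 65.1 CPM in Mitf nerves 3 days post injury replicate 1 (the other libraries 1.03 to 3.64 CPM), 7.11 CPM in Mitf nerves of the Ndrg1 table replicate 2 (0.273 to 1.86 CPM) and 6.2 CPM in DhhCre nerves replicate 4 (0.586 to 1.49 CPM). Mmp19 reached 55.5 CPM in Mitf-Ndrg1 replicate 3 (the others 44.9 to 47.9 CPM). Adamts14 was low in Ndrg1 replicate 3 at 23.1 CPM (the others 34 to 38.5 CPM). Adamts6 reached 16.7 CPM in Mitf nerves of the Ndrg1 table replicate 6 (the others 8.46 to 11.3 CPM). Mmp27 was counted in 1 of the 6 control libraries of that table, replicate 2, at 0.147 CPM. Adamts6 was called in edgeR's test of the interaction of genotype and time (adjusted p = 0.0454). Its day 14 Mutant libraries had 4.34, 2.97 and 6.41 CPM against 1.12, 0.738 and 1.08 CPM in Wild type nerves. The interaction call was lost in 17 of the 18 fits that left out 1 library, and with the replicate block.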

How the results depend on the processing

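No alternative turned the direction of a called member. DESeq2 called 5 members in place of 3 in Fig4 -/- at P12, 10 in place of 6 in Wild type nerves at day 14 against day 7, 1 in place of 0 and 7 in place of 3 in Mutant against Wild type nerves at days 7 and 14, 5 in place of 1 in Mitf-Ndrg1 against Ndrg1 and 3 in place of 0 in the Mitf by Ndrg1 interaction. With the compared groups fitted alone, counts were 3 in Wild type and 1 in Mutant nerves at day 14 against day 7 (11 in Mutant nerves in the reported fit), 0 in Mutant against Wild type nerves at day 14 and 0 in Mitf-Ndrg1 against Ndrg1. Without a filter on low counts Mutant nerves had 7 calls at day 14 against day 7. With the muscle covariate, 0 members were called in Fig4 -/- at P12 and 5 after injury. Without the muscle-rich libraries, counts were 0 in Wild type and 5 in Mutant nerves at day 14 against day 7, 0 in Mutant against Wild type nerves at day 14 and 0 in the interaction of genotype and time. The cause was not tested. RLE scaling changed no count by over 1.5 times.

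Leaving out each library in turn, the count ranged from 1 to 3 in Fig4 -/- at P12, 7 to 14 after injury, 12 to 16 and 2 to 9 in Wild type nerves (day 7 against 3, day 14 against 7), 14 to 19 and 6 to 17 in Mutant nerves, 1 to 10 in Mutant against Wild type nerves at day 14, 0 to 1 in the interaction of genotype and time, 24 to 26 in Ndrg1 against control, 23 to 29 and 23 to 26 in Mitf-Ndrg1 against control and against Mitf, 0 to 4 in Mitf-Ndrg1 against Ndrg1 and 0 to 3 in the Mitf by Ndrg1 interaction. With the replicate block, 0 members were called in the Mitf and DhhCre table and the Egr2Cre Mitf table, as without it. No label says that libraries of the same number belong together. In other tables the block gave 2 calls in Fig4 -/- at P12, 10 after injury, 17 and 4 in Wild type and 18 and 8 in Mutant nerves. It gave 3 in Mutant against Wild type nerves at day 14 and 0 in the interaction of genotype and time. Counts were 25 in Ndrg1 against control, 27 and 25 in Mitf-Ndrg1 against control and against Mitf and 1 in Mitf-Ndrg1 against Ndrg1. Members near 1 CPM, such as Mmp27, Mmp3 and Adamts3, rest on few counts.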

Other observations

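The Mmp12 and Timp1 levels at day 3 differed between tables that were scaled separately and cannot be tested against each other. Mutant nerves 3 days post injury had 512.1 to 548.6 CPM of Timp1 and 14.3 to 168.1 CPM of Mmp12, and Wild type nerves 523.4 to 808.5 CPM and 74.6 to 153.4 CPM. Mitf nerves 3 days post injury had 138.6 to 204 CPM of Timp1 and 1.03 to 25.8 CPM of Mmp12. Schwann and myelin markers summed to 3330 to 3800 CPM in the Mutant, 3060 to 3760 CPM in the Wild type and 37300 to 91800 CPM in the Mitf libraries.

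In the table of Egr2Cre Mitf and Mitf nerves, whose labels name no injury, Mmp12 averaged 16.1 ± 1.72 CPM with the Egr2Cre Mitf label and 13.1 ± 2.06 CPM with the Mitf label (SD, n = 3 each), where nerves labelled uninjured or control elsewhere averaged at most 0.131 CPM. Timp1 there averaged 22.4 ± 0.416 CPM with the Egr2Cre Mitf label and 19.7 ± 2.94 CPM with the Mitf label. Mmp12 also had large spread within groups of the time course, with 168.1, 35.8 and 14.3 CPM in the Mutant libraries at day 3, and it was called in no comparison of that table. Mmp13, a collagenase next to Mmp12 in the cluster, had 5.23, 1.54 and 0.424 CPM in the same libraries, in the same order.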
